A study of Mus musculus with 16 samples.

Results

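The odorant receptor genes of mouse chromosome 16 are described here in cells of the olfactory mucosa sorted by a reporter of neuronal activity. The members are the gene probesets whose identifier places them on chromosome 16 and whose symbol is Olfr followed by a number, with Olfr15 left out. The rule gave 35 of the 22206 gene probesets of the array, which carries 1080 Olfr probesets in all, and it used no measured value. All 35 matched a protein-coding RefSeq gene. Olfr15 lies on the same chromosome and is given only beside the members.

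Each olfactory sensory neuron expresses a single odorant receptor gene out of a very large family, and the choice is thought to involve enhancers, homeodomain and Ebf transcription factors and a feedback signal from the receptor protein. The receptors are G protein-coupled receptors on the cilia, where an odorant that binds starts cyclic AMP signalling. Their genes lie in clusters, and close neighbours are often related in sequence. S100a5, which encodes a calcium-binding protein, is expressed in these neurons in an activity-dependent way, so a reporter at S100a5 marks neurons that have recently been active.

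The groups, with 4 arrays each, were the GFP+ and the GFP- cells of odorant mice and the GFP+ and the GFP- cells of vehicle mice, the vehicle being filtered air. All 24 mice were S100a5-tauGFP mice of both sexes aged 7 to 12 weeks, housed singly in clean air chambers (40 h, 3.1 L/min), and pulses of 10 s were given every 20 min once 26 h had passed. The labels of the samples name the odorant bourgeonal and the title of the series names indole, so it is called the odorant here. The olfactory mucosa was dissociated and sorted by fluorescence, cells of 3 mice were pooled for each array, and the labels name no gate other than GFP. The mouse numbers leave 8 pools, so the GFP+ and GFP- arrays of a treatment with the same number came from the same mice. GFP is tied to S100a5 in mature neurons, and a GFP- sample can hold inactive neurons as well as other cells of the mucosa. With cells pooled before hybridisation, fewer neurons that choose a receptor and less receptor RNA per neuron cannot be told apart.

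The values are log2 signals, and the background level of an array was taken as the 95th percentile of its 23 antigenomic control probesets, between 6.57 and 6.87. Between 46.7% and 50.9% of gene probesets were above it per array, as were 27 to 32 of the 35 members. Over the 16 arrays, 20 members were above background on every array, 14 on some and 1, Olfr161, on 0. A probeset has its own affinity, so levels are compared only within a member. Differences between groups are given in log2 units ± SE. S100a5 was 2.21-fold higher in GFP+ than in GFP- cells of odorant mice and 1.91-fold higher in vehicle mice (limma with Benjamini-Hochberg adjustment, adjusted p = 0.00247 and 0.00236, n = 4 arrays each). Omp, the marker of mature olfactory neurons, read between 18.53 and 18.75 on all 16 arrays, and its difference between the fractions did not pass the test (adjusted p = 0.712 in odorant mice and 0.817 in vehicle mice). With array medians subtracted Omp was called higher in GFP+ cells of both (0.41 log2 units in each, adjusted p = 0.0367 in odorant mice and 0.0225 in vehicle mice). That scaling put the median difference of all gene probesets at 0.42 in odorant mice and 0.45 in vehicle mice, and Omp was not above these medians. Of 8 mature neuron markers, 1 was called higher in GFP+ cells of odorant mice and 2 in vehicle mice, and Cngb1 was at background in every group.

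Other cell types of the mucosa were mostly in the GFP- fraction. All 8 measured immune markers were called lower in GFP+ cells of both treatments, with a mean log2 signal per array of 6.11 to 6.61 in GFP+ cells against 11.9 to 13.5 in GFP- cells of odorant mice, and 6.49 to 7.00 against 12.0 to 13.8 in vehicle mice. Ptprc, S100a9, Cd52 and Tyrobp were at background in both GFP+ groups. Called lower in GFP+ cells of both treatments were 6 of 6 microvillar and tuft markers, 4 of 4 globose basal and dividing markers and the red blood cell marker Alas2. In each treatment 5 of 8 immature neuron markers were called lower. Gap43, Gng8, Nhlh1 and Dpysl3 were lower in both treatments, Hdac2 in odorant mice alone and Stmn2 in vehicle mice alone. Nhlh1 and Gng8 were at background in GFP+ cells. Among the markers called lower, the tuft marker Chat and the basal cell marker Neurog1 were at background in both fractions of both treatments. Their calls rest on values below background. Of 7 sustentacular markers, 3 were lower in odorant mice and 6 in vehicle mice, while the 3 horizontal basal markers were at background in all groups. The part of these cells in the receptor results was not tested. The mean signal of the 8 mature neuron markers was 16.17 to 16.26 in GFP+ cells against 15.93 to 16.16 in GFP- cells of odorant mice, and 16.17 to 16.38 against 16.11 to 16.17 in vehicle mice.

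Most of the chromosome 16 receptors differed between the activity-sorted fractions, and more of them were higher in GFP+ cells than lower. In odorant mice 17 of the 35 were higher and 6 lower in GFP+ than in GFP- cells (adjusted p under 0.05 over all gene probesets), and 12 were not called. The share of all gene probesets called was 3.57% higher and 7.84% lower, or 11.4% in either direction, and of all Olfr probesets 34.1% and 24.4%, against 48.6% and 17.1% of the members. In vehicle mice 18 were higher, 6 lower and 11 not called, or 51.4% and 17.1% of the members, with 7.76% and 9.97% of all gene probesets (17.7% in either direction) and 35.1% and 25.5% of all Olfr probesets. The median difference of the members was 1.14 log2 units in odorant mice and 1.29 in vehicle mice, that of all Olfr probesets 0.33 and 0.27, and that of all gene probesets 0.10 and 0.08. The groups did not overlap for 16 members that were higher and 6 that were lower in GFP+ cells of odorant mice (7.86% and 9.07% of all gene probesets), and for 16 and 5 in vehicle mice (11.9% and 11% of all). Subtracting each array's median gave an all-gene median of 0.42 in odorant mice and 0.45 in vehicle mice, with 19 members higher and 6 lower, and 21 higher and 5 lower. The share of all gene probesets called under that scaling was not determined. Without GFP+ array 3 of odorant mice the members' median there was 0.70.

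**Figure D1:**
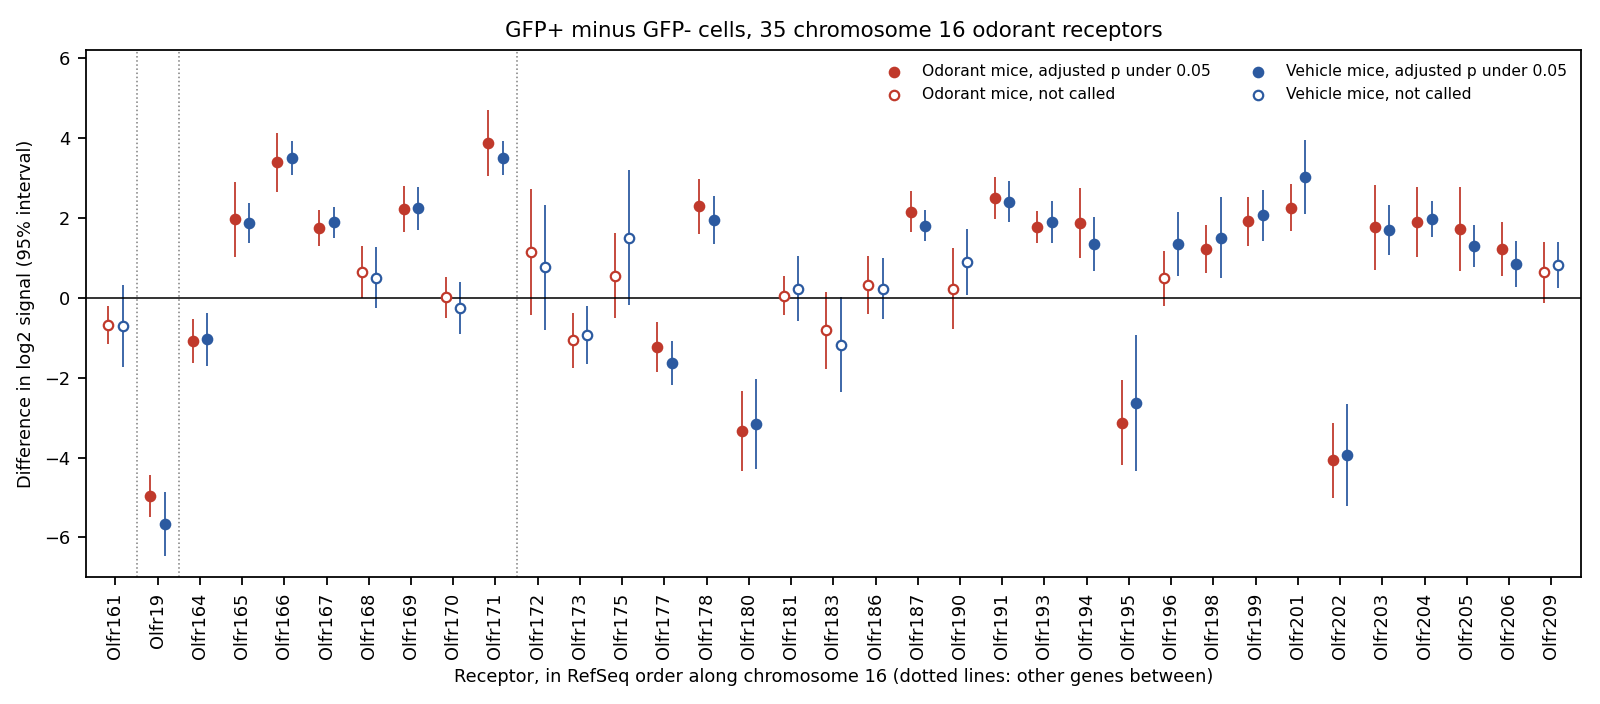
Difference in log2 signal between GFP+ and GFP- cells for each of the 35 receptors, in RefSeq order along the chromosome, in odorant mice (red) and vehicle mice (blue), n = 4 arrays per group. Bars are 95% intervals of the limma fit, filled points passed the test, and dotted lines mark where other genes lie between the clusters. Olfr19, Olfr202, Olfr180 and Olfr195 lie far below 0 in both treatments, and the receptors on either side of Olfr202 and Olfr195 lie above it.

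In RefSeq order the members form 4 runs of receptor genes. Olfr161 lies near Olfr15 and Olfr19 stands alone. A cluster of 8 reaches from Olfr164 to Olfr171, and a cluster of 25 from Olfr172 to Olfr209. The older MOR names divide the large cluster mainly into the subfamilies MOR182, MOR183 and MOR184.

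Olfr171 and Olfr166 of the smaller cluster had the widest excess in GFP+ cells. The signals of Olfr171 in odorant mice were 14.71, 12.92, 13.05 and 13.79 in GFP+ cells, against 9.94, 9.55, 9.24 and 10.28 in GFP- cells. Its signals in vehicle mice were 13.76, 12.98, 13.41 and 13.35 in GFP+ cells, against 9.54, 10.08, 9.85 and 10.01 in GFP- cells. The groups were far apart in both treatments, 14.6-fold in odorant mice (log2 difference 3.87 ± 0.37, adjusted p = 3.16e-05) and 11.4-fold in vehicle mice (3.50 ± 0.19, adjusted p = 1.1e-06). The 4 arrays per group gave Olfr166 15.56, 14.48, 15.06 and 15.08 in GFP+ cells, against 11.56, 11.10, 11.31 and 12.66 in GFP- cells, in odorant mice. Vehicle mice had 15.13, 14.99, 15.38 and 14.54 in GFP+ cells, against 11.31, 11.42, 11.64 and 11.68 in GFP- cells. Every GFP+ array lay more than 1 log2 unit above every GFP- array, and Olfr166 was 10.5-fold higher in GFP+ cells of odorant mice and 11.3-fold higher in vehicle mice (adjusted p = 3.66e-05 and 1.06e-06). Both receptors were higher in GFP+ cells in 8 of 8 pools.

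Olfr169, a relative of Olfr171 in subfamily MOR273, showed a smaller difference. In odorant mice Olfr169 read 14.93, 14.69, 14.31 and 14.73 in GFP+ cells, against 12.92, 12.13, 11.83 and 12.93 in GFP- cells. The vehicle mice gave 15.19, 14.11, 14.57 and 14.62 in GFP+ cells, against 12.72, 11.94, 12.32 and 12.55 in GFP- cells. The fractions did not overlap, and Olfr169 was 4.64-fold higher in GFP+ cells of odorant mice and 4.72-fold higher in vehicle mice (adjusted p = 0.00016 and 9.87e-05). The remaining MOR273 receptor, Olfr170, lies between them. The 4 arrays per group gave Olfr170 11.15, 10.46, 10.25 and 10.63 in GFP+ cells, against 10.97, 10.15, 10.56 and 10.79 in GFP- cells, in odorant mice. Vehicle mice had 11.01, 10.93, 11.15 and 9.90 in GFP+ cells, against 10.92, 10.92, 10.60 and 11.57 in GFP- cells. Its fractions overlapped in both treatments and the test was not passed (log2 difference 0.01 ± 0.23 in odorant mice and -0.25 ± 0.29 in vehicle mice, adjusted p = 0.991 and 0.602), and other scalings turned the sign. Along the same cluster Olfr165 and Olfr167 rose 3.89-fold and 3.34-fold in GFP+ cells of odorant mice and 3.66-fold and 3.69-fold in vehicle mice. Olfr168 differed by 0.64 ± 0.29 and 0.50 ± 0.34 log2 units and passed neither test (adjusted p = 0.224 and 0.358), whereas it passed both with array medians subtracted (adjusted p = 0.0264 with odorant and 0.0499 with vehicle). That scaling also raised the median difference of all gene probesets, to 0.42 with odorant and 0.45 with vehicle.

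Olfr164, at the start of this cluster, was on the other side. Olfr164 read in odorant mice 10.06, 9.47, 9.08 and 8.98 in GFP+ cells, against 10.38, 10.09, 10.74 and 10.74 in GFP- cells. For vehicle mice the values were 10.33, 9.39, 9.24 and 8.87 in GFP+ cells, against 10.27, 10.18, 10.49 and 11.03 in GFP- cells. Olfr164 was 2.13-fold lower in GFP+ cells of odorant mice and 2.05-fold lower in vehicle mice (adjusted p = 0.0143 and 0.0374), lower in 7 of 8 pools, and the vehicle groups overlapped. With the pool as a block the vehicle call was lost (adjusted p = 0.0702), as it was without GFP+ array 2, 3 or 4 or GFP- array 1, 3 or 4 (adjusted p 0.0556 to 0.095). Its subfamily relative Olfr165, the next gene, was among the receptors that rose.

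Olfr19, the receptor that stands alone, had the widest difference of all members, and it was lower in GFP+ cells. In odorant mice Olfr19 read 6.82, 6.99, 6.08 and 6.02 in GFP+ cells, against 11.49, 11.15, 11.74 and 11.36 in GFP- cells. The vehicle mice gave 6.30, 5.83, 6.30 and 5.33 in GFP+ cells, against 11.94, 10.77, 11.22 and 12.51 in GFP- cells. GFP- cells held a clear signal on all 8 arrays, whereas in GFP+ cells it was above background on 1 of 4 arrays of odorant mice and on 0 of 4 of vehicle mice. Set against the background level, GFP+ cells were at least 24.9-fold lower in odorant mice and at least 31.1-fold lower in vehicle mice (log2 difference of the measured signals -4.96 ± 0.24 and -5.67 ± 0.36, adjusted p = 2.09e-07 and 2.63e-06).

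Olfr202 of the large cluster likewise averaged below background in GFP+ cells. The 4 arrays per group gave Olfr202 5.96, 4.60, 5.26 and 6.07 in GFP+ cells, against 9.60, 10.25, 8.35 and 9.97 in GFP- cells, in odorant mice. Vehicle mice had 6.73, 4.85, 5.93 and 5.48 in GFP+ cells, against 9.91, 10.78, 7.87 and 10.19 in GFP- cells. In GFP+ cells it was above background on 1 of 8 arrays, and it was at least 6.84-fold lower than in GFP- cells in odorant mice and at least 8.06-fold lower in vehicle mice (adjusted p = 5.92e-05 and 0.000825). Olfr201, its neighbour in the gene order and of the same subfamily MOR182, went the opposite way. Olfr201 read in odorant mice 10.74, 10.72, 10.58 and 10.53 in GFP+ cells, against 7.70, 8.09, 8.63 and 9.12 in GFP- cells. For vehicle mice the values were 11.22, 11.44, 10.77 and 11.64 in GFP+ cells, against 7.27, 7.54, 8.96 and 9.21 in GFP- cells. Its GFP+ arrays all lay above its GFP- arrays, 4.78-fold in odorant mice and 8.11-fold in vehicle mice (adjusted p = 0.000154 and 0.000522). Both directions held in 8 of 8 pools.

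**Figure D2:**
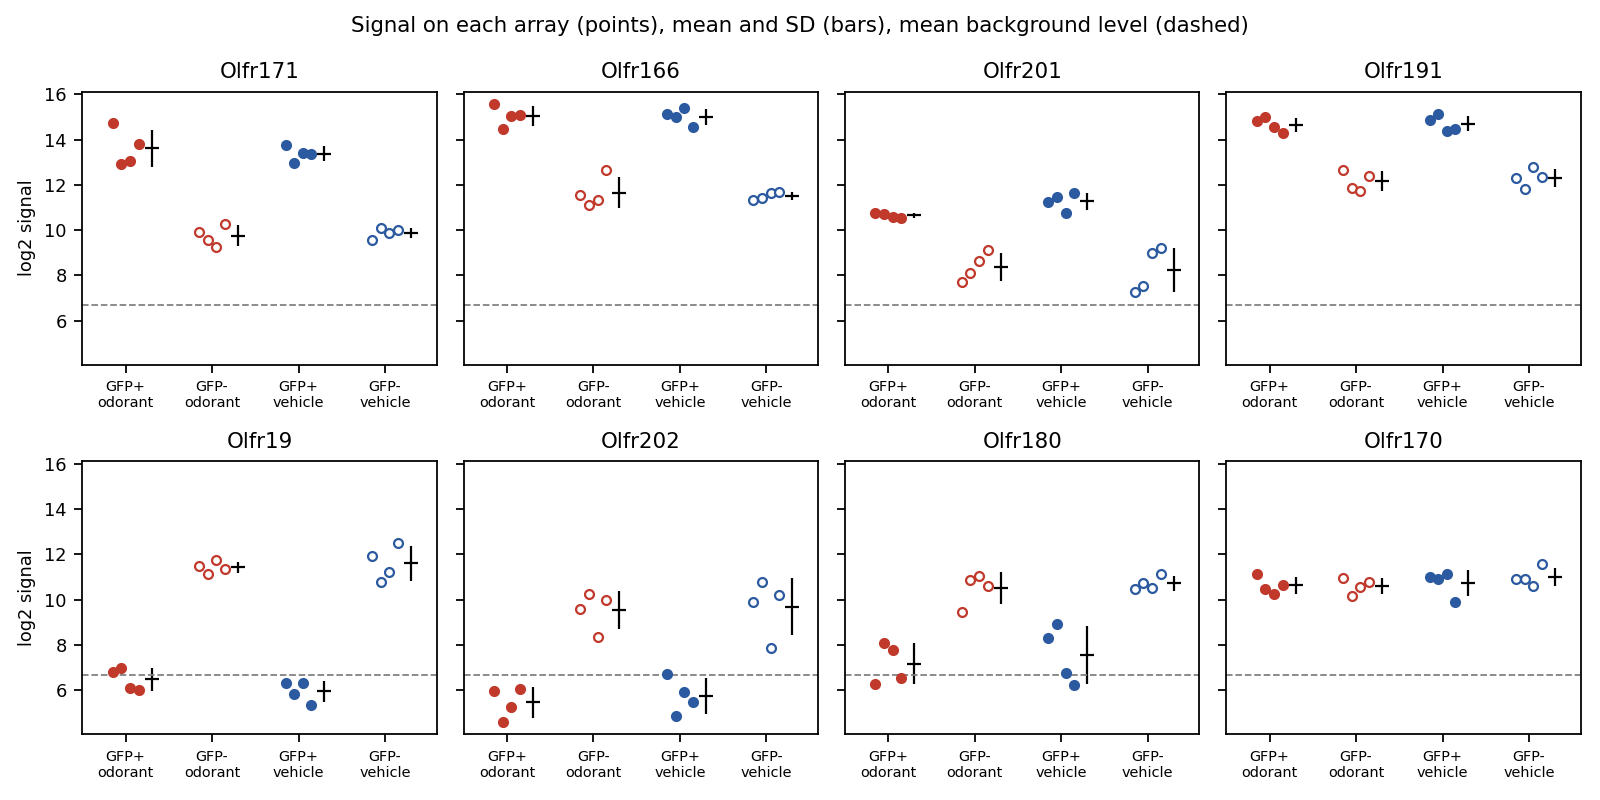
Signal (log2) of 8 receptors on each array by group, with the mean and SD of 4 arrays beside the points and the mean background level dashed. Olfr171, Olfr166, Olfr201 and Olfr191 lie higher in GFP+ cells (filled), and Olfr19 and Olfr202 average below background there. Olfr180 is lower in GFP+ cells but above background on 2 of 4 of these arrays in odorant mice and 3 of 4 in vehicle mice. The 4 groups of Olfr170 overlap.

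The sequences at the start of these genes are shown for the member with the widest difference (Olfr19), for the neighbours that moved in opposite directions (Olfr202 and Olfr201) and for Olfr198, a MOR182 receptor whose window held the most motif matches of the 4. They are RefSeq windows of GRCm38.p6, from 250 bases before to 50 bases after the annotated gene start, and are written in the gene's own direction. Capitals mark the ATG at base 251 and any motif match before it. All 4 genes are on the minus strand, with Olfr19 at chr16:16673930-16674229, Olfr202 at chr16:59284446-59284745, Olfr201 at chr16:59269616-59269915 and Olfr198 at chr16:59202375-59202674.
Olfr19: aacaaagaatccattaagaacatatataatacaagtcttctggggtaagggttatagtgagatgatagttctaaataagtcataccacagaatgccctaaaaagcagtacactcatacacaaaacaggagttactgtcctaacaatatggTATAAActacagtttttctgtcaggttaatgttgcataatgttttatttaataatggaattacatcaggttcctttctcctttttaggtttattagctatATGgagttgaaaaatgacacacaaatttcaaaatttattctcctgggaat
Olfr202: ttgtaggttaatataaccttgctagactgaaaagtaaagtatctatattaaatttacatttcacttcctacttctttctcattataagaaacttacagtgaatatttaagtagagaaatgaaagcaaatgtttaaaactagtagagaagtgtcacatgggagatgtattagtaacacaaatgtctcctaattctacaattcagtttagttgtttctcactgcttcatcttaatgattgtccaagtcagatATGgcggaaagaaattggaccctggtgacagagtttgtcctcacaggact
Olfr201: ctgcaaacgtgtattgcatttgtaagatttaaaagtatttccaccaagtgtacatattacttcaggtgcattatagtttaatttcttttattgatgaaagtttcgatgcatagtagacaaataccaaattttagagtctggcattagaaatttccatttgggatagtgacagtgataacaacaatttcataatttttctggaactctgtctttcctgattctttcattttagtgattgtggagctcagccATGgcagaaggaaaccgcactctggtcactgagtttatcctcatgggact
Olfr198: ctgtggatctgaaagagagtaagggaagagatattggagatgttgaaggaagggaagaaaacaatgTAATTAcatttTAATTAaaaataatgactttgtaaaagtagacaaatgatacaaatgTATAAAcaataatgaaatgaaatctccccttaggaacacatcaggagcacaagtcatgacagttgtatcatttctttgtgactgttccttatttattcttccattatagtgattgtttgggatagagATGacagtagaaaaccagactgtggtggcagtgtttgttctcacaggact
Of the 35 members 28 had such a window, and in 18 of the 28 base 251 began an ATG, so the annotated start of these is the coding start and the bases before it need not be a promoter. Olfr201 and Olfr202 had 39 of the first 50 coding bases in common, and 59.3% of positions matched in an alignment of their upstream 250 bases. For pairs of different subfamilies the same alignment matched 50.7% of positions for Olfr19 and Olfr202 and 56.5% for Olfr190 and Olfr202. It matched 92.5% for the MOR273 receptors Olfr169 and Olfr170. The letters TAATTA and TAATTG (cores that homeodomain factors such as Lhx2 bind) and CCCNNGGG (Olf1/Ebf sites) were searched on both strands, as was TATAAA, the TATA box sequence. The homeodomain core TAATTA stood in 4 of the 28 windows (14.3%), against 18.6% of Olfr windows and 5.29% of all RefSeq windows, and TAATTG in 3 (10.7%), against 23.2% and 8.0%. TATAAA was in 13 (46.4%), against 41.2% and 13.6%, and CCCNNGGG in 0, against 3.07% and 13.7%. TAATTA and TAATTG share their first 5 letters, and matches of different motifs may overlap. Olfr198 held TAATTA at bases 67 and 78 and TATAAA at base 124, Olfr19 held TATAAA at base 151, while the windows of Olfr201 and Olfr202 held no match.

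Subfamily MOR182, with 10 members, was mostly higher in GFP+ cells. In each treatment 8 of the 10 were higher, Olfr202 was lower and Olfr209 was not called, with a median difference of 1.75 log2 units in odorant mice and 1.42 in vehicle mice. Olfr199 stood near background in GFP- cells. The 4 arrays per group gave Olfr199 8.48, 8.19, 8.52 and 8.0 in GFP+ cells, against 5.84, 5.91, 7.12 and 6.68 in GFP- cells, in odorant mice. Vehicle mice had 8.66, 9.0, 8.26 and 8.65 in GFP+ cells, against 6.03, 6.45, 6.35 and 7.47 in GFP- cells. The fractions did not overlap, and the signal was at least 2.9-fold higher in GFP+ cells of odorant mice and at least 3.39-fold higher in vehicle mice (adjusted p = 0.000712 and 0.000558). Olfr194, Olfr204 and Olfr205 were 3.64, 3.71 and 3.32-fold higher in GFP+ cells of odorant mice and 2.54, 3.91 and 2.45-fold higher in vehicle mice. In GFP- cells Olfr194 was near background, above it on 2 of 4 arrays of each treatment, and Olfr204 was above it on 3 of 4 in odorant mice. Olfr198 and Olfr206 were 2.33 and 2.34-fold higher in odorant mice and 2.83 and 1.8-fold higher in vehicle mice. Several of these calls did not hold when 1 array was left out. In odorant mice the call of Olfr205 was lost without GFP+ array 1, 3 or 4 or GFP- array 1 or 2 (adjusted p 0.0522 to 0.11), and that of Olfr206 without GFP+ array 3 or GFP- array 1, 2 or 3 (adjusted p 0.0516 to 0.0706). In vehicle mice Olfr206 lost it without GFP+ array 1, 2 or 4 or GFP- array 1, 2 or 3 (adjusted p 0.0548 to 0.119) and with the pool as a block (adjusted p = 0.0667), and Olfr198 without GFP+ array 1, 2, 3 or 4 or GFP- array 3 (adjusted p 0.0503 to 0.114).

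The first 50 coding bases were compared, without gaps, only among the 18 members whose window held an ATG at base 251. By this count the most alike were also of MOR182, namely Olfr203 and Olfr209 with 44 in common, Olfr194 and Olfr209 with 43 and Olfr194 and Olfr203 with 42. Olfr169 and Olfr170, with 92.5% of aligned upstream positions matching, had 31 in common, so the count can miss close pairs. Olfr203 was at least 2.36-fold higher in GFP+ cells of odorant mice and 3.25-fold higher in vehicle mice (log2 difference 1.76 ± 0.48 and 1.70 ± 0.29, adjusted p = 0.0384 and 0.00197), a call that was lost in odorant mice without GFP+ array 1, 3 or 4 or GFP- array 1 or 2 (adjusted p 0.0501 to 0.111). In GFP- cells it was near background, above it on 2 of 4 arrays of each treatment. Olfr209 differed by 0.64 ± 0.35 and 0.82 ± 0.26 and passed neither test (adjusted p = 0.319 and 0.0546), although in vehicle mice it did without GFP+ array 3 (1.03, adjusted p = 0.0201), after quantile normalization (adjusted p = 0.0227) and without dim probesets (adjusted p = 0.0456), and in both treatments with array medians subtracted (adjusted p = 0.046 with odorant and 0.00479 with vehicle), a scaling that also raised the all-gene median. Whether these receptors differ from each other was not tested. The probe sequences were not used here, so signal shared between related receptors, Olfr169 and Olfr170 included, cannot be separated.

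In subfamily MOR183, with 7 members counting Olfr193, 3 were higher in GFP+ cells of odorant mice, 4 in vehicle mice and 0 lower in either. Olfr191 carried the strongest of these differences. The signals of Olfr191 in odorant mice were 14.80, 15.00, 14.55 and 14.28 in GFP+ cells, against 12.65, 11.85, 11.71 and 12.39 in GFP- cells. Its signals in vehicle mice were 14.85, 15.13, 14.38 and 14.46 in GFP+ cells, against 12.28, 11.80, 12.77 and 12.34 in GFP- cells. Olfr191 was 5.68-fold higher in GFP+ cells of odorant mice and 5.31-fold higher in vehicle mice (adjusted p = 2.88e-05 and 4.34e-05), with no overlap of the groups. Olfr187 and Olfr193 were 4.47 and 3.41-fold higher in odorant mice and 3.5 and 3.75-fold higher in vehicle mice.

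Olfr196 was the member called in vehicle mice and not in odorant mice. The 4 arrays per group gave Olfr196 7.32, 8.34, 8.12 and 7.13 in GFP+ cells, against 7.14, 6.80, 7.93 and 7.11 in GFP- cells, in odorant mice. Vehicle mice had 9.23, 9.53, 8.32 and 8.10 in GFP+ cells, against 6.75, 7.51, 8.16 and 7.36 in GFP- cells. The GFP+ cells of vehicle mice held the highest values, but they overlapped with the GFP- cells, and the log2 difference was 0.49 ± 0.31 in odorant mice and 1.35 ± 0.36 in vehicle mice (adjusted p = 0.406 and 0.0272). The vehicle call was lost without GFP+ array 1 or 2 or GFP- array 1, 2 or 4 (adjusted p 0.0541 to 0.0772). Tested directly, as the interaction of fraction and treatment over all 16 arrays, the difference between the treatments was -0.86 ± 0.52 (95% interval -1.96 to 0.23, adjusted p = 0.962).

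Subfamily MOR184 held 3 of the 6 receptors that were lower in GFP+ cells, Olfr177, Olfr180 and Olfr195. In odorant mice Olfr180 read 6.25, 8.09, 7.79 and 6.53 in GFP+ cells, against 9.47, 10.87, 11.06 and 10.60 in GFP- cells. The vehicle mice gave 8.30, 8.93, 6.76 and 6.23 in GFP+ cells, against 10.46, 10.76, 10.50 and 11.14 in GFP- cells. Its fractions were separate in both treatments, 10.1-fold lower in GFP+ cells of odorant mice and 8.92-fold lower in vehicle mice (adjusted p = 0.000402 and 0.00151). The 4 arrays per group gave Olfr195 8.29, 8.70, 8.41 and 6.12 in GFP+ cells, against 11.48, 10.49, 11.06 and 10.99 in GFP- cells, in odorant mice. Vehicle mice had 9.67, 9.77, 8.18 and 5.64 in GFP+ cells, against 11.47, 10.52, 10.51 and 11.33 in GFP- cells. Array 4 was the lowest of the GFP+ arrays in both treatments. Olfr195 was 8.74-fold lower in GFP+ cells of odorant mice and 6.24-fold lower in vehicle mice (adjusted p = 0.00112 and 0.0377), and the vehicle call was lost without GFP+ array 3 or GFP- array 1, 2, 3 or 4 (adjusted p 0.0592 to 0.0901).

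Olfr177 differed less. Olfr177 read in odorant mice 8.98, 8.55, 8.52 and 9.16 in GFP+ cells, against 9.41, 9.63, 10.65 and 10.47 in GFP- cells. For vehicle mice the values were 9.29, 9.48, 8.24 and 8.93 in GFP+ cells, against 10.56, 10.38, 10.73 and 10.82 in GFP- cells. The GFP+ arrays were below the GFP- arrays in both treatments, 2.36-fold in odorant mice and 3.11-fold in vehicle mice (adjusted p = 0.0148 and 0.00105). Olfr178, the next gene, was the single MOR184 receptor that was higher in GFP+ cells, 4.88-fold in odorant mice and 3.87-fold in vehicle mice (adjusted p = 0.000453 and 0.000522). The other 4 of the 8 members of MOR184 were not called in either treatment. Olfr173 was near background in GFP+ cells, with log2 differences of -1.06 ± 0.31 in odorant mice and -0.93 ± 0.33 in vehicle mice (adjusted p = 0.0507 and 0.0806), and lower in GFP+ cells in 8 of 8 pools. With the pool as a block it was called in odorant mice (adjusted p = 0.0382), as it was without GFP+ array 2 (adjusted p = 0.0191) or GFP- array 1 (adjusted p = 0.0186).

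The 11 members called in neither treatment included 3 whose differences lay nearest to 0, Olfr170, given above, Olfr181 and Olfr186. In odorant mice Olfr181 read 8.17, 8.03, 8.27 and 8.78 in GFP+ cells, against 8.72, 7.96, 8.36 and 7.99 in GFP- cells. The vehicle mice gave 9.40, 9.17, 8.15 and 9.40 in GFP+ cells, against 8.27, 8.14, 9.29 and 9.50 in GFP- cells. No order of the fractions is visible in these values. The arrays of each group gave Olfr186 10.32, 10.32, 9.92 and 9.61 in GFP+ cells, against 9.03, 9.16, 10.12 and 10.56 in GFP- cells, in odorant mice. Vehicle mice had 11.35, 10.36, 9.91 and 10.08 in GFP+ cells, against 9.61, 10.43, 9.85 and 10.89 in GFP- cells. In both receptors the fractions overlapped, with log2 differences of 0.05 (95% interval -0.43 to 0.54) and 0.33 (-0.40 to 1.06) in odorant mice, and 0.23 (-0.58 to 1.04) and 0.23 (-0.54 to 1.0) in vehicle mice. Olfr161, Olfr172 and Olfr183 had group means at or below background in both fractions of both treatments, so no fold is given. Olfr161 nevertheless passed the test without odorant GFP+ array 1 (adjusted p = 0.0069) and without vehicle GFP- array 3 (adjusted p = 0.0497), on values all below background. Olfr190 differed by 0.23 ± 0.46 in odorant mice and 0.89 ± 0.37 in vehicle mice (adjusted p = 0.813 and 0.134), and in vehicle mice it passed with the pool as a block (adjusted p = 0.0467) and without GFP+ array 2 (adjusted p = 0.0322).

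The treatments share no array between their sorts, and the fractions differed in much the same way in both. The 17 receptors higher in GFP+ cells of odorant mice were all higher in vehicle mice, the 6 lower ones were the same, and 34 of 35 members had the same sign, Olfr170 being the exception. Across the members, which are not independent replicates, the difference in odorant mice followed that in vehicle mice with Pearson's r of 0.982 and Spearman's rho of 0.956 (n = 35), and r was 0.984 over all 1080 Olfr probesets. The members' gap between the treatments had a median of 0.18 log2 units in size and reached 0.95 in Olfr175. In the interaction 0 of the 35 members passed the test, and 0 had an unadjusted p under 0.05. The share of all gene probesets called was 0%, and 1093 of 22206 (4.92%) had an unadjusted p under 0.05 (limma). The smallest unadjusted p among the members belonged to Olfr196, Olfr19 (0.71 ± 0.47, 95% interval -0.28 to 1.69) and Olfr201 (-0.76 ± 0.54, -1.89 to 0.37), each with an adjusted p of 0.962.

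Odorant and vehicle were then compared within each fraction, which asks whether a receptor is represented more in active neurons after the odorant. In GFP+ cells 0 of the 35 members were called, and the share of all gene probesets called was 0% (limma with Benjamini-Hochberg adjustment). At an unadjusted p under 0.05 there were 4 members (11.4%), 69 Olfr probesets (6.39%) and 848 gene probesets (3.82%). All 4 members were lower with the odorant. The median difference of the members was -0.19 log2 units, with 27 of 35 below 0, against -0.08 for all Olfr probesets (646 of 1080 below 0) and 0.01 for all gene probesets (10811 of 22206 below 0).

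Olfr201, Olfr196 and Olfr181 had the smallest unadjusted p in GFP+ cells. The GFP+ signals of Olfr201, given above, averaged 10.64 ± 0.10 in odorant mice and 11.27 ± 0.37 in vehicle mice (SD, n = 4), a difference of -0.62 ± 0.19 (95% interval -1.03 to -0.21, adjusted p = 0.999). It was the single member whose odorant and vehicle arrays did not overlap in GFP+ cells (2.86% of the members, against 0.919% of all gene probesets that were lower without overlap). Olfr196 averaged 7.73 ± 0.59 in odorant mice and 8.79 ± 0.70 in vehicle mice, with a difference of -1.06 ± 0.36 and overlapping arrays. For Olfr181 the averages were 8.31 ± 0.33 and 9.03 ± 0.60, with a difference of -0.72 ± 0.28. Olfr173, the fourth, differed by -0.75 ± 0.34, near background. All 4 had an adjusted p of 0.999.

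In GFP- cells 0 members were called as well, with 0% of all gene probesets. There 1 member (2.86%), 108 Olfr probesets (10%) and 1520 gene probesets (6.84%) had an unadjusted p under 0.05. The member was Olfr178, which read 9.41, 8.72, 8.0 and 9.39 in GFP- cells of odorant mice, against 9.99, 9.05, 9.90 and 10.03 in vehicle mice. Its odorant arrays tended to the lower values but overlapped with the vehicle arrays, with averages of 8.88 ± 0.67 in odorant mice and 9.74 ± 0.47 in vehicle mice and a difference of -0.86 ± 0.33 (95% interval -1.59 to -0.14, adjusted p = 0.708). The GFP- cells gave Olfr206 7.60, 8.04, 8.01 and 8.50 in odorant mice, against 8.02, 8.48, 8.87 and 8.99 in vehicle mice. Olfr206 and Olfr177 followed with differences of -0.55 ± 0.25 and -0.58 ± 0.27 (adjusted p = 0.725 and 0.735), and the groups of all 3 overlapped. The members' median was -0.16, with 27 of 35 below 0, against -0.09 for all Olfr probesets (687 of 1080 below 0) and -0.01 for all gene probesets (11360 of 22206 below 0). These comparisons use the arrays of the sorts, so their values are not independent of those above.

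With 4 arrays per group the intervals were wide. A rise with the odorant of 1 log2 unit or more lay outside the 95% interval of 28 of the 35 members in GFP+ cells and of 31 in GFP- cells, and a rise of 2 log2 units or more outside that of 34 and 35. Rises within these intervals are not excluded by these arrays, and the smallest rise that would be called was not determined. The counts include members at background in both groups, such as Olfr161, whose intervals describe background signal. The receptors with the widest excess in GFP+ cells, Olfr171 and Olfr166, differed between odorant and vehicle by 0.25 ± 0.35 and 0.04 ± 0.24 there, and Olfr15, outside the members, by -0.10 ± 0.22.

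**Figure D3:**
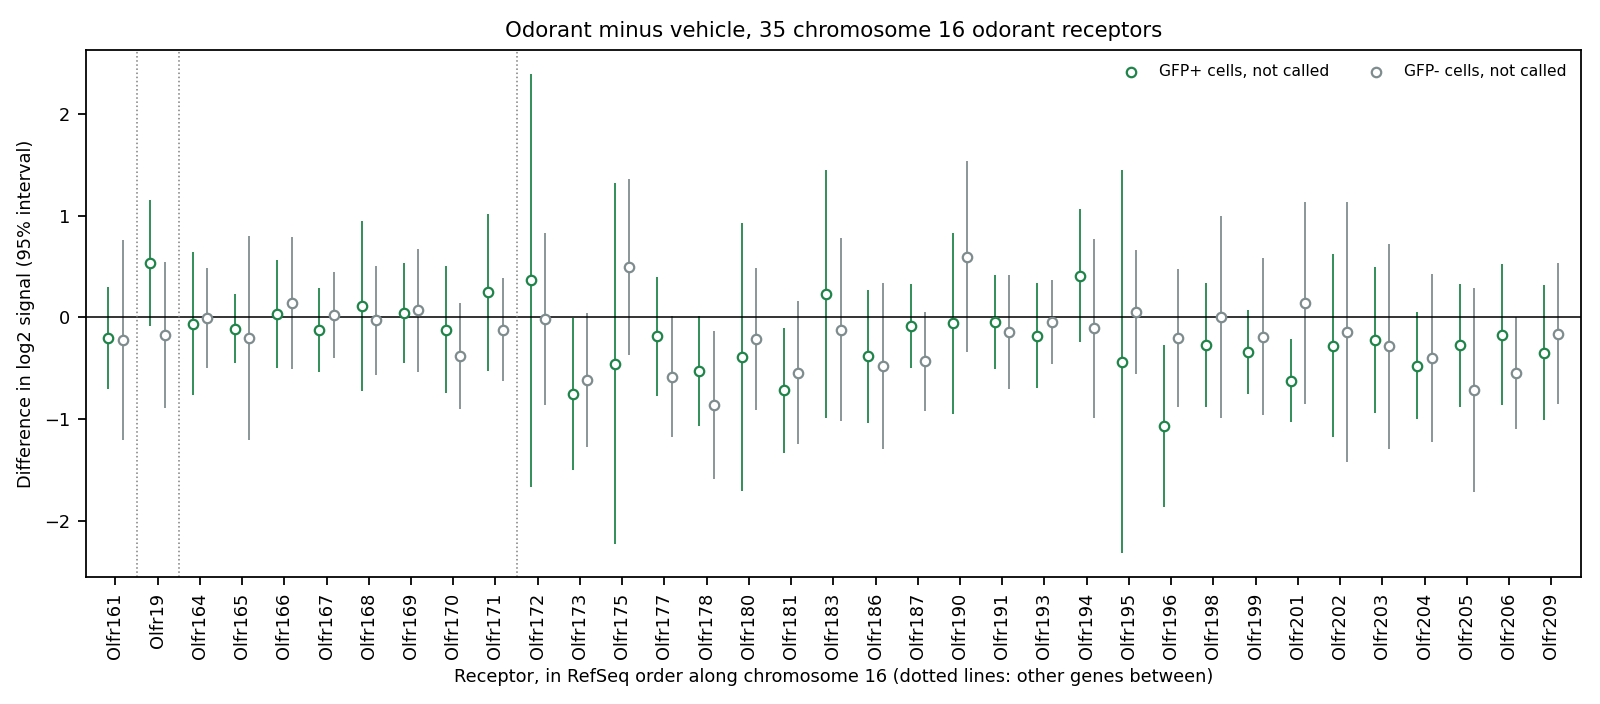
Difference in log2 signal between odorant and vehicle mice for each of the 35 receptors, in GFP+ cells (green) and GFP- cells (grey), with 95% intervals of the limma fit, n = 4 arrays per group. All points are open because 0 members passed the test, and 27 of 35 lie below 0 in each fraction.

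Members differed widely in how much they varied among the pools of a group. The median SD over the members was 0.49 log2 units in GFP+ cells and 0.61 in GFP- cells of odorant mice, and 0.46 and 0.49 in vehicle mice. The SD was lowest for Olfr201 (0.10) in GFP+ cells of odorant mice and highest there for Olfr172 (1.73), and in GFP+ cells of vehicle mice it was highest for Olfr195 (1.93). In GFP- cells Olfr165 (1.09) varied most in odorant mice and Olfr202 (1.27) in vehicle mice.

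The pools numbered 4 gave the lowest or highest GFP+ value for several receptors in both treatments, not always far from the next array. Olfr175 read 9.80, 11.09, 10.02 and 8.75 in GFP+ cells of odorant mice and 11.18, 11.90, 10.78 and 7.61 in vehicle mice, with array 4 lowest in both. Olfr195, given above, was also lowest on GFP+ array 4 of both treatments. Olfr172 read 4.45, 3.45, 6.72 and 6.99 in GFP+ cells of odorant mice and 4.61, 3.37, 4.73 and 7.44 in vehicle mice, with array 4 highest in both and mostly background values elsewhere. The GFP- signal of Olfr202 was instead lowest on array 3 of both treatments. These receptors were picked after their values were seen. The Y-linked gene Eif2s3y read 2.63 to 3.41 on the 4 arrays of the pools numbered 4 and 9.95 to 11.2 on the other arrays. By this gene the pools numbered 4 read as female in both treatments. Sex cannot be told apart from pool number here, and its part in the receptor values was not tested.

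Leaving out the pools numbered 4 of both treatments, an alternative chosen after the data were seen, gave 16 members higher and 4 lower in GFP+ cells of odorant mice, and 17 higher and 5 lower in vehicle mice. No share of all gene probesets called was determined for this alternative. In odorant mice the calls of Olfr164, Olfr177 and Olfr205 were lost (adjusted p = 0.117, 0.0527 and 0.0836), and in vehicle mice those of Olfr164, Olfr198 and Olfr206 (adjusted p = 0.172, 0.0855 and 0.0809). Olfr175 was gained in vehicle mice with a log2 difference of 2.59 (adjusted p = 0.0015), where the 4 pools together gave 1.51 ± 0.77 (adjusted p = 0.213), and without vehicle GFP+ array 4 alone it was 2.43 (adjusted p = 0.0014).

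**Figure D4:**
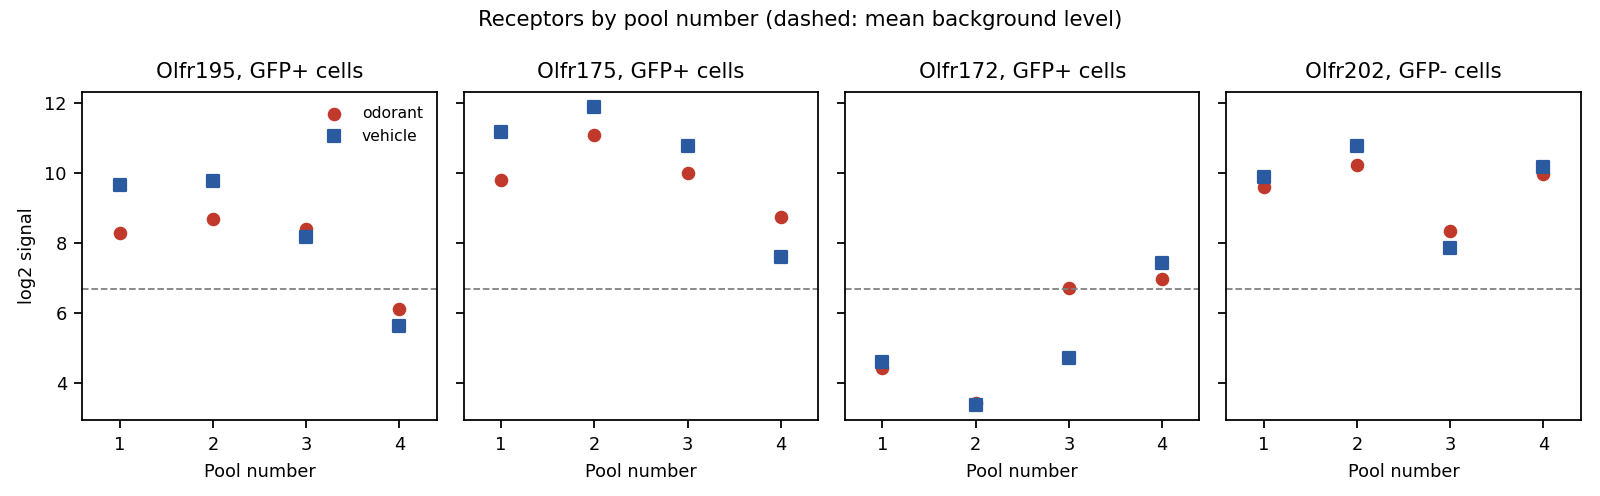
Signal (log2) of Olfr195, Olfr175 and Olfr172 in GFP+ cells and of Olfr202 in GFP- cells by pool number, in odorant mice (circles) and vehicle mice (squares), 1 array per point, with the mean background level dashed. The pools numbered 4 are lowest for Olfr195 and Olfr175 and highest for Olfr172 in both treatments, and those numbered 3 are lowest for Olfr202.

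Genes that serve receptor expression and odor signalling were compared between the fractions as well. Of 15 genes of receptor gene choice, its feedback and receptor trafficking, among them Lhx2, Ldb1, Ebf1 and the chaperones Rtp1 and Rtp2, 0 were called higher and 1 lower in GFP+ cells of odorant mice, and 2 higher and 1 lower in vehicle mice, with median differences of 0.08 and 0.14 log2 units. Of 14 measured genes of odor signalling, 2 were higher and 1 lower in odorant mice, and 5 higher and 1 lower in vehicle mice, with medians of 0.18 in both, and the lower one, Grk3, was at background in both fractions. The shares of all gene probesets called in either direction were 11.4% in odorant mice and 17.7% in vehicle mice. The few calls among the 15 receptor expression genes therefore do not set them apart from other genes. A list of 8 genes whose expression depends on neuronal activity includes S100a5, the gene of the sorted reporter. Of these 8, 5 were higher in GFP+ cells of odorant mice and 6 in vehicle mice, with medians of 1.29 and 1.39. Kirrel2 was called in vehicle mice alone (limma, adjusted p = 0.000102, against 0.156 in odorant mice), and Kirrel3 and H2bc21 in neither treatment. In the comparisons of odorant with vehicle 0 genes of these lists were called. Olfr15, on the same chromosome, was 6.26-fold higher in GFP+ cells of odorant mice and 5.66-fold higher in vehicle mice (adjusted p = 1.12e-05 and 2.04e-05).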

How the data were processed

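Total RNA, 50 to 100 ng of each sorted sample, was labelled with biotin and hybridised to Clariom S arrays. The authors made the deposited log2 probeset signals with Affymetrix Expression Console, per the submitters' processing notes. The sources used here do not give its version, normalization or genome build. Values were used as deposited. Of 28846 probesets, 6640 controls were left out, and 19572 of the 22206 gene probesets carried 1 gene symbol and 2634 none. The number of columns without a sample was 0.

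Groups were compared with limma 3.58.1 in R 4.3.3 (lmFit and eBayes, two-sided, Benjamini-Hochberg adjustment over all gene probesets, called at adjusted p under 0.05), on the 8 arrays of each comparison, and on all 16 for the interaction. The fits were tested on simulated data. A group at background is one with no array above background or a mean at or below the mean background level; a fold against it uses that level and is written "at least". P-values measure the spread between pools of 3 mice, and the number of arrays limits the precision.

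Within a treatment the same number marks the same mice. Values centred within groups were compared across genes between same-numbered GFP+ and GFP- arrays. With vehicle r was 0.113 to 0.156 (other numbers at most 0.032), and 8 of 8 arrays were best with their own number. With odorant r was 0.014 to 0.356 and other numbers reached 0.152, so only 5 of 8 were best with their own. Over the members alone r was -0.252 to 0.293 with vehicle (2 of 8 best with their own number). With odorant it was 0.079 to 0.496 (6 of 8). The block on the pool is given where it changed a call.

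The members, lists and tests were chosen with earlier results of these data known. Values per array are given for the called members with the 6 largest differences in each direction between fractions of vehicle mice. They are also given for members called in 1 treatment alone and for the 3 nearest to 0. In the comparisons of odorant with vehicle they are given for the 3 with the smallest p. The 3 pairs with the highest count of shared first coding bases are given as folds or log2 differences only. With no protein table at hand, likeness was taken from the first 50 coding bases of the RefSeq windows, in the 18 members with an ATG at base 251. Alternatives were quantile normalization, array medians subtracted, a filter on dim probesets, values raised to background, the block, 1 fit of all arrays and leaving out each array. Python 3.11.15, pandas 2.3.3 and matplotlib 3.10.9 were used for tables and figures.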

Additional observations from a re-analysis of the deposited data

Results flagged for a closer look

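In 7 of the 140 sets of 4 arrays that the 35 members and 4 groups make, 1 array lay far from the other 3 by Dixon's criterion at 95%, which chance alone gives in about 1 of 20 sets. In GFP+ cells of odorant mice Olfr195 was low on array 4, at 6.12 against 8.29 to 8.70 on the others. In GFP+ cells of vehicle mice Olfr178 was high on array 1, at 12.34 against 11.46 to 11.50. Olfr170 was low there on array 4, at 9.90 against 10.93 to 11.15, and Olfr173 on array 3, at 6.44 against 7.65 to 7.87. Olfr161 was low on array 1, at 3.88 against 4.44 to 4.52, with all values below background. In GFP- cells of vehicle mice array 2 was low for Olfr178, at 9.05 against 9.90 to 10.03, and for Olfr198, at 5.75 against 7.64 to 7.96. The difference of Olfr178 between the fractions passed the test under every alternative run.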

How the results depend on the processing

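The counts of members called stayed within 1.5 times the reported ones under every alternative run. The share of all gene probesets called was not determined under the alternatives. In odorant mice 17 of the 23 called members remained called under all of them, Olfr164, Olfr177, Olfr198, Olfr203, Olfr205 and Olfr206 being lost under at least 1, and in vehicle mice 19 of 24, with Olfr164, Olfr195, Olfr196, Olfr198 and Olfr206 lost. Values raised to background gave 14 members higher and 6 lower in GFP+ cells of odorant mice, with a median of 0.64 in place of 1.14, and 15 higher and 4 lower in vehicle mice; the all-gene median became 0.12 for odorant against vehicle in GFP+ cells and 0.16 in the interaction. With the pool as a replicate block the counts were 17 higher and 7 lower in odorant mice and 18 and 5 in vehicle mice, and the block changed no other call than those given. Between odorant and vehicle the number is shared without shared mice (r of -0.03 to 0.25 in GFP+ and -0.10 to 0.31 in GFP- cells, 4 and 5 of 8 arrays best with their own number). Over the 35 members alone same-numbered arrays of GFP+ cells correlated at -0.19 to 0.84 (4 of 8 arrays best with their own number). In GFP- cells they correlated at 0.25 to 0.44 (8 of 8, other numbers at most 0.15). The pools numbered 4 of both treatments shared the low Eif2s3y signal, and the part of this in the correlations was not tested. The block left 0 calls between odorant and vehicle. With 1 array, or all arrays numbered 4 of a comparison, left out, members higher ranged from 14 to 17 in odorant mice and from 15 to 18 in vehicle mice, members lower from 4 to 7 and from 4 to 6, and the medians from 0.70 to 1.35 and from 0.98 to 1.42; the medians for odorant against vehicle ranged from -0.32 to -0.07 in GFP+ cells and from -0.29 to -0.04 in GFP- cells, and the interaction's from -0.16 to 0.15. Signs turned only for differences that were not called in the reported fits. Quantile normalization gave -0.0312 for Olfr170 in odorant mice and -0.0399 for Omp in vehicle mice. Subtracted array medians gave 0.11 for Olfr170 in vehicle mice, and 0.0077 and -0.0007 for Omp in GFP- cells and in the interaction. Values raised to background gave 0.13 for Olfr161 in odorant mice. With arrays left out, differences between the fractions ranged from -0.17 to 0.13 for Olfr170, from -0.19 to 0.21 for Olfr181 and from -0.15 to 0.60 for Olfr190 in odorant mice, and from -0.39 to 0.22 for Olfr170, from -0.0772 to 0.58 for Olfr186 and from -0.0419 to 1.31 for Olfr172 in vehicle mice. Between odorant and vehicle in GFP+ cells they ranged from -0.10 to 0.17 for S100a5, from -0.0031 to 0.038 for Omp and from -0.25 to 0.02 for Olfr15. The causes were not tested, and signals at background limit 15 members on at least 1 array.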
